A study of Mus musculus with 4 samples.

Results

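The genes described here differed between HMGB1 knockout (KO) and wild-type (WT) mouse keratinocytes in the same direction in 2 settings, untreated and with interleukin-4 (IL-4). They were the transcript clusters, the array's unit for a gene, whose KO minus WT difference was at least 1 log2 (2-fold) in size and of the same sign under both treatments. The highest of a cluster's 4 values also had to reach 5.33, the median of all values in the table. The genes Hmgb1, Lox, Aldh3a1 and Klk5 and the keratin (Krt) and solute carrier (Slc) families were left out, which removed 11 clusters. Of 22206 clusters on the array, 11456 passed the level filter and 96 met the rule, 21 higher and 75 lower in KO. Before those genes were left out, 28 clusters were higher in both treatments, 0.244% of the 11456, and 79 were lower, 0.69%. The clusters were chosen by their genotype differences on these arrays, so those differences are given as a description with no test. Under a single treatment, 1.34% of clusters were at least 1 log2 higher and 3.12% lower in KO untreated, and 1.61% higher and 3.86% lower with IL-4.

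RNA came from cultured primary keratinocytes, the epithelial cells of the epidermis, of male mice. Each of the 4 groups had 1 array. They were KO and WT cultures left untreated, and KO and WT cultures given recombinant IL-4 at 100 ng/ml for 12 h. The labels call the mutant HMGB1 KO and the design text calls the mice K5-HMGB1. The making of the allele, the age of the mice and the number of animals behind a culture are not stated in the labels. The values are log2 expression values, so a difference of 1 is 2-fold, and with 1 array per group none has a replicate error. Cultures of 1 genotype may come from the same mice, so a genotype difference and a difference between animals cannot be told apart.

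HMGB1 is an abundant chromatin protein that bends DNA, and outside the cell it acts as an alarmin, a signal of tissue damage. Keratinocytes form the skin barrier and also make prostaglandins, antimicrobial proteins and cytokines. IL-4 is made by T helper cells and other immune cells in allergic inflammation, atopic dermatitis included.

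The targeted gene was low in both KO arrays, with 7.97 in KO and 14.71 in WT untreated, and 7.60 in KO and 14.17 in WT with IL-4. Of the keratinocyte markers looked for, 3 of 7 carried a symbol in the deposited tables. Itgb4, a hemidesmosome integrin, read 15.52 in KO and 14.96 in WT untreated, and 16.49 in KO and 16.59 in WT with IL-4. Krt1, a keratin of the suprabasal layers, read 17.35 in KO and 16.62 in WT untreated, and 7.99 in KO and 7.49 in WT with IL-4, differences of 0.73 and 0.50. Krt10, its partner keratin and one of the genes left out above, read 13.94 in KO and 11.98 in WT untreated, and 8.70 in KO and 6.80 in WT with IL-4, differences of 1.97 and 1.90.

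Many of the genes that met the rule gave dim readings, a word used here for values under the 95th percentile of negative control rows. That percentile was 9.21 over the array's 5222 negative control rows, and 9 of the 21 higher and 36 of the 75 lower clusters lay under it on all 4 arrays. Both genotypes were dim untreated in 15 higher and 42 lower clusters, and with IL-4 in 9 higher and 47 lower clusters. Control rows met the same size and level rule more often than clusters did, at 5.84% of 3217 rows (2.74% higher and 3.11% lower) against 0.934% of 11456 clusters before any gene was left out. Among rows with at least 1 array at 9.21 or above, the shares were 9.38% of 416 control rows and 1.01% of 6139 clusters. Among rows with no array at that level they were 5.32% of control rows and 0.846% of clusters. Of bright clusters, with a mean of 12 or more over the arrays, 0.487% met the rule. Differences of this size were thus also read from negative control rows.

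**Figure D1:**
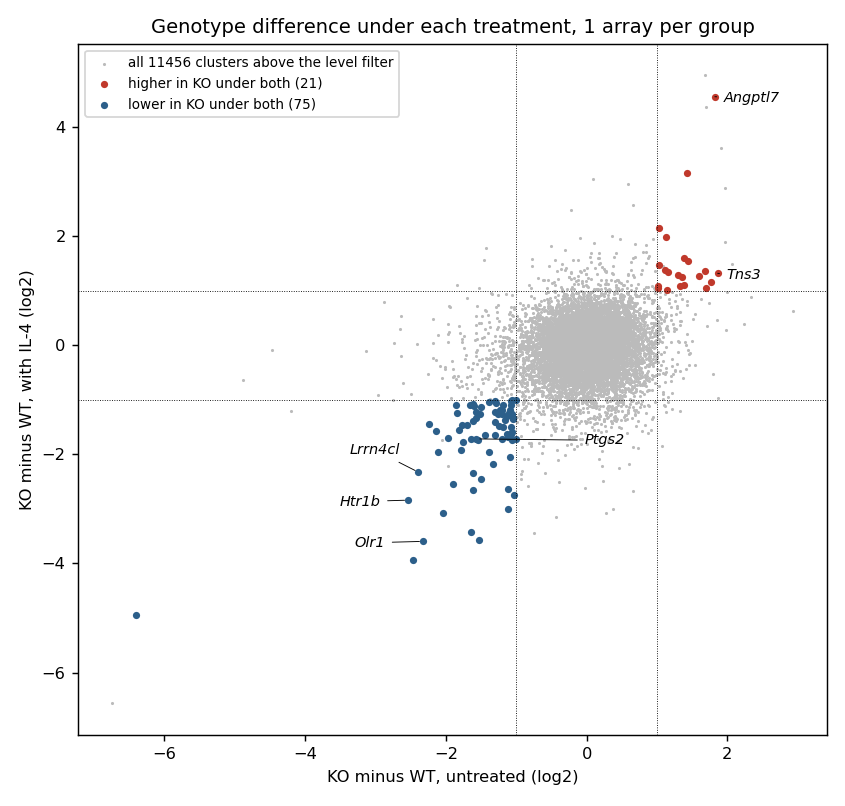
KO minus WT in untreated cultures (x axis, log2) against KO minus WT with IL-4 (y axis, log2) for the 11456 clusters above the level filter, 1 point per cluster. Red points are the 21 clusters higher and blue points the 75 lower in KO under both treatments, and dotted lines mark 1 log2. Red points reach 4.56 with IL-4 (Angptl7) and 1.86 untreated (Tns3). The blue point farthest from the rest, at -6.41 and -4.94, carries the symbols Gm2710 and Gm10075.

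The pattern was marked by 4 genes, Htr1b, Lrrn4cl and Ptgs2 on the lower side and Tns3 on the higher side. Htr1b, a serotonin receptor that couples to inhibitory G proteins, read 4.82 in KO and 7.35 in WT untreated. With IL-4 it read 4.47 in KO and 7.31 in WT. The genotype differences were -2.54 and -2.84, the IL-4 responses were small in both genotypes (-0.34 in KO and -0.04 in WT), and every value was dim. Lrrn4cl, a membrane protein related to leucine-rich repeat proteins, read 5.66 in KO and 8.06 in WT untreated. With IL-4 it read 6.78 in KO and 9.10 in WT, so it was higher with IL-4 in both genotypes while the genotype differences were -2.39 and -2.32. These values were dim as well.

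Ptgs2, the inducible cyclooxygenase that starts prostaglandin synthesis, was the brightest of the markers. It read 12.22 in KO and 13.79 in WT untreated, and 12.37 in KO and 14.09 in WT with IL-4. Both KO values lay below both WT values, with differences of -1.57 and -1.72 and IL-4 responses of only 0.15 in KO and 0.29 in WT. Tns3, a tensin that links integrins to actin at focal adhesions, read 8.28 in KO and 6.41 in WT untreated, and 10.25 in KO and 8.93 in WT with IL-4. It was higher with IL-4 by 1.97 in KO and 2.51 in WT, the largest IL-4 response of the 4 markers. The KO untreated value lay below the WT value with IL-4, so the genotypes did not separate across treatments. Both untreated values of Tns3 and its WT value with IL-4 were dim, and only its KO value with IL-4 was not. In the authors' deposited table of the IL-4 arrays, whose signed folds are positive where WT is higher, the fold sizes were 7.15 for Htr1b, 5.01 for Lrrn4cl, 3.28 for Ptgs2 and 2.5 for Tns3.

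The markers lie on different chromosomes. In GRCm38, Htr1b is at chromosome 9, 81628291 to 81633832, Lrrn4cl at chromosome 19, 8850768 to 8853909, Ptgs2 at chromosome 1, 150100031 to 150108234, and Tns3 at chromosome 11, 8431652 to 8664758. All are annotated as protein-coding. Promoter windows from RefSeq (GRCm38.p6, 250 bases before to 50 bases after a transcription start) are shown for Htr1b, Ptgs2 and Tns3, because these genes mark the pattern. Windows of Lif and Mmp13 are added as a gene of the higher and a gene of the lower set that hold AP-1 letters, a choice made after the motif search. Each is printed on the strand of its gene, 5′ to 3′, and capitals mark every letter belonging to a motif that was searched for.
Htr1b (chr9:81633783-81634082, minus strand): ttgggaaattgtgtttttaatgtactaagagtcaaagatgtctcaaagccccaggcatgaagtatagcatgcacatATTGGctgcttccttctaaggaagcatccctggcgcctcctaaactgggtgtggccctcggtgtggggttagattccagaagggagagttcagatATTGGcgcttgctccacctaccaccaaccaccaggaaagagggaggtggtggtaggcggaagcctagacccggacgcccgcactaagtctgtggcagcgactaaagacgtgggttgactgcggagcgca
Ptgs2 (chr1:150099781-150100080, plus strand): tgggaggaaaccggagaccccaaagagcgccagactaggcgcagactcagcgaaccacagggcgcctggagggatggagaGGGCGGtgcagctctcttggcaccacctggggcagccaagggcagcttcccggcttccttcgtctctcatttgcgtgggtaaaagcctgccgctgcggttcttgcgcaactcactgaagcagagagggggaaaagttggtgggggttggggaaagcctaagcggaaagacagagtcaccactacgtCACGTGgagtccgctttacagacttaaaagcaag
Tns3 (chr11:8664486-8664785, minus strand): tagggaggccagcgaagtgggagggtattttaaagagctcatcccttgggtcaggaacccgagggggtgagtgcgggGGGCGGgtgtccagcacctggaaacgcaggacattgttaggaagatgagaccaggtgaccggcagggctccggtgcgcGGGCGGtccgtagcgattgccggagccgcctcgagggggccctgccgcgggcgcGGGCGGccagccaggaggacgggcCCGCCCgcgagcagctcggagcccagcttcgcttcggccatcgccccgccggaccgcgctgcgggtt
Lif (chr11:4257318-4257617, plus strand): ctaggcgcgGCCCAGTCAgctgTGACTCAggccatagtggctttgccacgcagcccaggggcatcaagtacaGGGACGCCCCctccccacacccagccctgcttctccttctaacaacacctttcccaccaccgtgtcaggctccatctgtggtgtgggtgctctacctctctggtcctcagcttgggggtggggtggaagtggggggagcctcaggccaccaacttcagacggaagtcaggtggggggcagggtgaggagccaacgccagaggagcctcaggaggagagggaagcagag
Mmp13 (chr9:7272264-7272563, plus strand): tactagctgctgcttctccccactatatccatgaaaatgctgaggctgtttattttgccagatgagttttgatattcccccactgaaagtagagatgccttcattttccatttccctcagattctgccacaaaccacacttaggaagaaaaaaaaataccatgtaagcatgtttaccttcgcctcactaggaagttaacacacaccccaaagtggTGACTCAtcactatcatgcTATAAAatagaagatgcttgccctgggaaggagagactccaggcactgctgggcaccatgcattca

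The motifs were searched on both strands of 21263 windows of protein-coding genes, and windows of the same gene can overlap. They were the TATA box TATAAA, the E-box CACGTG, the cyclic AMP response element TGACGTCA, the AP-1 site TGANTCA, a kB site (GGGA and CC with any 4 bases between), an antioxidant response element TGACNNNGC, the GC box GGGCGG and the CCAAT box CCAAT. The Ptgs2 window held a GC box 170 bases before the start and an E-box 17 bases after it. The Htr1b window held 2 CCAAT boxes on the opposite strand, and the Tns3 window 4 GC boxes. The Lif window held an antioxidant response element, an AP-1 site 228 bases before the start and a kB site, and no 2 matches in the printed windows overlapped. The Mmp13 window held an AP-1 site 35 and a TATA box 16 bases before the start.

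Of the genes with a single symbol, 12 of 20 higher and 44 of 67 lower genes had windows, 16 and 51 in number. AP-1 letters stood in 3 of 16 windows of the higher set (18.8%) and in 9 of 51 of the lower set (17.6%), against 6.99% of all windows. For kB letters the shares were 31.2% and 23.5%, against 23% of all. GC boxes were in 31.2% of the higher and 52.9% of the lower windows, against 46.2% of all. E-box letters were in 0 of 16 higher and 6 of 51 lower windows, against 7.84% of all, and no window of either set held the cyclic AMP response element, which 2.23% of all held. TATA boxes (18.8% and 15.7%, against 12.6%), antioxidant response elements (18.8% and 13.7%, against 13.0%) and CCAAT boxes (31.2% and 37.3%, against 38.2%) completed the search. These are matches of letters in few windows and are not evidence of binding.

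The higher set held 21 clusters, 20 of them with a single symbol. The differences ran between 1.01 and 1.86 untreated, with a median of 1.35, and between 1.02 and 4.56 with IL-4, with a median of 1.32. Over all 11456 clusters the medians were -0.01 and -0.02. In 11 of the 21 both KO values lay above both WT values. The rule itself favours this order, and its share over all clusters was not counted. The difference was larger with IL-4 in 11 clusters and larger untreated in 10.

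Among them were genes of mesenchymal cells, matrix and adhesion, a grouping made after the values were seen, with Tns3, Vim, Spp1, Zeb1, Cdh13 and Mmp2. The group was drawn from the higher set alone and does not show a shift of such genes to 1 side. Matrix and protease genes were divided, with Mmp2 among those higher and Inhba, Mmp13 and Timp3 lower in KO under both treatments. Vim, the intermediate filament of mesenchymal cells, read 11.41 in KO and 10.28 in WT untreated, and 11.52 in KO and 9.54 in WT with IL-4. Both KO values exceeded both WT values, with all 4 values above the control rows' 95th percentile.

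Spp1, the secreted phosphoprotein osteopontin, read 8.42 in KO and 6.64 in WT untreated, and 10.80 in KO and 9.64 in WT with IL-4. Zeb1, a transcription factor that represses E-cadherin, read 7.0 in KO and 5.62 in WT untreated, and 8.88 in KO and 7.28 in WT with IL-4. Cdh13, a cadherin without a cytoplasmic domain, read 8.30 in KO and 6.62 in WT untreated, and 7.16 in KO and 5.80 in WT with IL-4, differences of 1.69 and 1.36. The values of Zeb1, Cdh13 and the gelatinase Mmp2 (1.14 and 1.02) were all dim, and both untreated values of Spp1 were dim.

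Markers of other cell types were read beside this group. Symbols exist only for clusters in the deposited tables of large differences, so these counts and means do not stand for the whole lists. Of 13 fibroblast markers 3 carried a symbol (Vim, Sparc and Fbln1), but Vim was itself chosen by the rule. The mean level of the other 2 was 10.34 in KO and 9.79 in WT untreated, and 8.85 in KO and 8.61 in WT with IL-4. Sparc was higher in KO by 0.80 untreated and 1.71 with IL-4, while Fbln1 differed by 0.29 and -1.24. Of 6 muscle markers 4 carried a symbol (Acta1, Acta2, Cnn1 and Tagln). Their mean level was 10.24 in KO and 8.78 in WT untreated, and 11.73 in KO and 10.93 in WT with IL-4. Untreated, the differences were 0.94 for Acta1, 1.99 for Acta2, 0.96 for Cnn1 and 1.98 for Tagln. With IL-4 they were 1.96, 0.98, -0.05 and 0.28 in the same order. Of 7 melanocyte markers 3 carried a symbol (Dct, Pmel and Tyrp1). Their mean level was 11.12 in KO and 11.15 in WT untreated, and 10.79 in KO and 9.51 in WT with IL-4. No marker is listed at 0, since the values are log2 intensities. The part of these cells in the genotype differences was not tested, and in bulk RNA fewer cells of a type and less RNA per cell cannot be told apart.

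The immune and endothelial marker lists had 1 symbol each. Cd68, a macrophage marker, differed by -1.65 untreated and -0.56 with IL-4, and Flt1, a VEGF receptor, by -0.75 and -3.43.

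Secreted ligands and receptors made up 6 more of the higher genes. Angptl7, a secreted angiopoietin-like protein, had the largest difference of the set with IL-4. It read 11.76 in KO and 9.93 in WT untreated, and 12.32 in KO and 7.76 in WT with IL-4. The WT value with IL-4 was the lowest of its 4, and the authors' deposited table gives a fold size of 23.6 between the IL-4 arrays. Lif, a cytokine of the interleukin-6 family, read 8.54 in KO and 7.39 in WT untreated, and 12.46 in KO and 11.11 in WT with IL-4. Its IL-4 responses were larger than its genotype differences, at 3.91 in KO and 3.72 in WT, against genotype differences of 1.15 and 1.35. Both untreated values of Lif were dim.

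Lifr, a receptor chain for Lif, was also higher in KO but dim, at 5.65 in KO and 4.63 in WT untreated, and 5.58 in KO and 4.50 in WT with IL-4. Fgfr1, a fibroblast growth factor receptor, differed by 1.38 and 1.11, and Ednrb, an endothelin receptor, by 1.30 and 1.28. Il20ra, a receptor chain for interleukins 19, 20 and 24, read 6.46 in KO and 4.77 in WT untreated, and 3.78 in KO and 2.72 in WT with IL-4. All values of Fgfr1, Ednrb and Il20ra lay under 9.21. Lifr and Il20ra are named here although they fall outside the naming rule, a choice made after their values were seen.

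The remaining higher genes had mixed roles. Clu, a secreted chaperone, was the brightest of the set, at 16.49 in KO and 14.89 in WT untreated, and 18.77 in KO and 17.51 in WT with IL-4. Of these values 3 lie above 16, the log2 limit of a 16-bit scanner reading, and whether saturation touched its differences (1.60 and 1.27) was not tested. Plpp1, a lipid phosphate phosphatase, differed by 1.44 and 1.55, and Zbtb16, a zinc finger repressor, by 1.32 and 1.08. Serpinb9, a granzyme B inhibitor, differed by 1.35 and 1.26, Mfap3l by 1.11 and 1.38, and Fam110c by 1.02 and 1.47. The set also held Gm5483 and 1 cluster with several symbols, among them Gsta1, a glutathione transferase, which differed by 1.03 and 2.15.

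**Figure D2:**
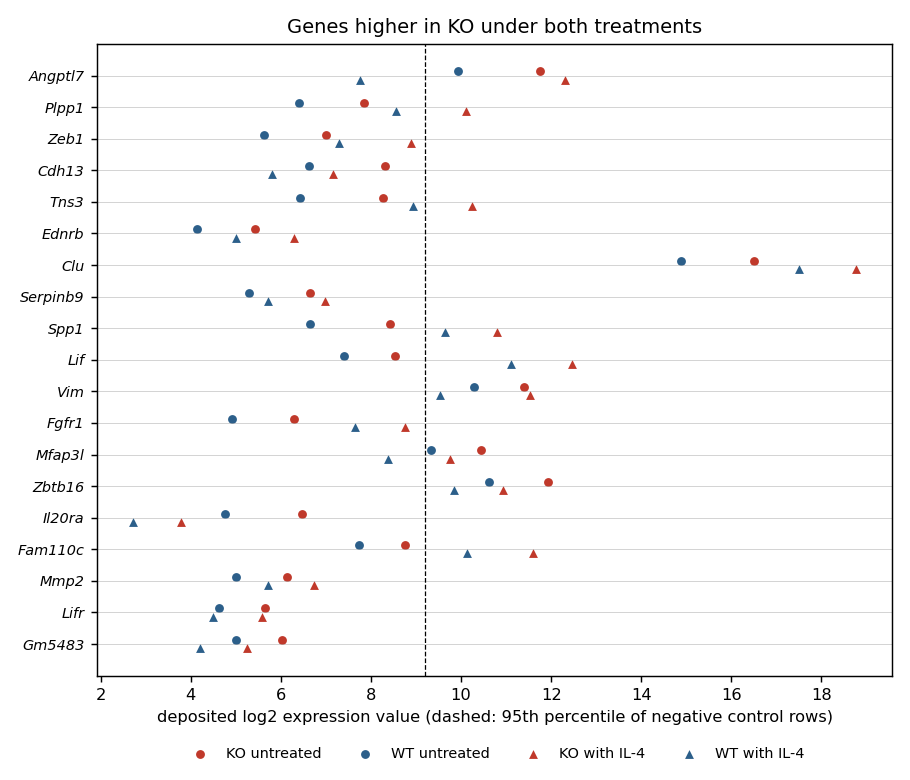
Deposited log2 expression values (x axis) of 19 of the 20 genes with a single symbol that were higher in KO under both treatments (rows, ordered by the smaller of the 2 differences). Red is KO and blue WT, circles are untreated and triangles with IL-4, 1 array each, and the dashed line is 9.21, the 95th percentile of negative control rows. Every red symbol lies right of the blue symbol of the same shape by the rule, and 3 of them (Clu, Vim and Zbtb16) have all 4 values right of the line.

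The lower set was larger, with 75 clusters, 67 of them with a single symbol. The differences had a median of -1.34 untreated and -1.49 with IL-4, and the most negative were -6.41 and -4.94. In 38 of the 75 both KO values lay below both WT values, an order that the rule favours here too and that was not counted over all clusters. The difference was larger in size with IL-4 in 46 clusters and larger untreated in 29.

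The cluster with the most negative differences carries the symbols Gm2710 and Gm10075, which RefSeq annotates as pseudogenes, both on chromosome 1. It is singled out after its values were seen. It read 6.25 in KO and 12.66 in WT untreated, and 7.41 in KO and 12.35 in WT with IL-4. Both KO values lay far below both WT values, as with Hmgb1, whose differences were -6.74 and -6.57. The sequences of its probes were not used here, so which transcript they read was not tested.

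Genes of prostaglandin and lipid metabolism formed a group of 8, again a grouping made after the values were seen. The list of 25 prostanoid genes written for this work had 7 members with a symbol, and Ptgs2, Hpgds and Pla2g2f were lower in KO under both treatments. Of the 7, 4 were at least 1 log2 lower and 0 higher untreated, where 3.12% of all clusters were that much lower. With IL-4, 3 were lower and 1 higher (Ptgds, 1.01), where 3.86% of all clusters were lower and 1.61% higher. The median differences of the 7 were -1.06 and -0.83. Symbols exist only for clusters in the deposited tables of large differences, and Ptgs2, Hpgds and Pla2g2f were chosen by these same genotype differences. The shares of all clusters are thus not a like base, and these counts do not stand for the whole list.

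Hpgds, which converts prostaglandin H2 to prostaglandin D2, read 10.92 in KO and 11.97 in WT untreated, and 5.80 in KO and 7.38 in WT with IL-4. Pla2g2f, a secreted phospholipase A2 of the epidermis, read 12.53 in KO and 13.61 in WT untreated, and 6.97 in KO and 8.47 in WT with IL-4. The values of Hpgds and Pla2g2f with IL-4 were all dim. For both genes the IL-4 responses exceeded the genotype differences, at -5.12 in KO and -4.59 in WT for Hpgds and of -5.56 in KO and -5.15 in WT for Pla2g2f. Ptgs2, in contrast, differed by less than 0.5 between treatments in either genotype. Pla2g4e, a cytosolic phospholipase, was lower untreated (-1.27) but not with IL-4 (-0.13).

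Ephx3, an epoxide hydrolase that acts on barrier lipids, read 11.50 in KO and 13.15 in WT untreated, and 8.84 in KO and 10.56 in WT with IL-4. Acsbg1, a fatty acyl-CoA synthetase, read 11.18 in KO and 12.47 in WT untreated, and 10.78 in KO and 11.82 in WT with IL-4, and its KO values lay below both WT values. Ptgr1, a reductase that inactivates prostaglandins and leukotriene B4, differed by -1.30 and -1.23. Ltb4r1, a leukotriene B4 receptor, differed by -1.21 and -1.26 with dim values, and the phosphodiesterase Gdpd1 by -1.13 and -1.30. Both Gdpd1 values with IL-4 were dim too. Ptgr1, Ltb4r1 and Gdpd1 fall outside the naming rule and were added after their values were seen.

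Receptors, channels and proteins best known from neurons formed a group of 9 with Htr1b at its head, and 7 of the 9 were dim on all arrays. Gria3, a subunit of AMPA glutamate receptors, read 3.73 in KO and 5.78 in WT untreated, and 3.83 in KO and 6.90 in WT with IL-4. Gfra2, a co-receptor for neurturin, read 4.93 in KO and 7.04 in WT untreated, and 4.55 in KO and 6.52 in WT with IL-4. The neuronal microtubule regulator Stmn2 differed by -1.65 untreated and -3.43 with IL-4. For these 3 genes each KO value lay below both WT values.

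The brighter members of this group were Ptprz1 and Vsnl1. Ptprz1, a receptor tyrosine phosphatase, read 8.47 in KO and 10.23 in WT untreated, and 6.92 in KO and 8.70 in WT with IL-4, the last 2 being dim. Vsnl1, a neuronal calcium sensor, read 10.28 in KO and 11.39 in WT untreated, and 9.47 in KO and 11.16 in WT with IL-4, which separated the genotypes. The synaptic scaffold Homer2, the calcium channel subunit Cacna1a and the dynamin Dnm3 were the other 3, all of them dim. On the list of 24 serotonin and amine receptor genes 3 had a symbol, and Htr1b alone was lower in both treatments. Slc6a4, the serotonin transporter, differed by 0.23 untreated and -2.21 with IL-4.

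Inflammasome and immune genes made up 10 of the lower set. Casp1, the protease that matures interleukin-1 beta, read 6.14 in KO and 8.04 in WT untreated, and 4.75 in KO and 7.28 in WT with IL-4. Both KO values lay below both WT values, and all 4 were dim. Pycard, the adaptor that recruits Casp1 to inflammasomes, differed by -1.06 and -1.26, also with dim values, and is named after its values were seen. S100a8, an antimicrobial subunit of calprotectin, read 13.08 in KO and 14.15 in WT untreated, and 8.68 in KO and 9.78 in WT with IL-4, with IL-4 responses of -4.41 in KO and -4.37 in WT.

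Tnfaip2, a gene induced by tumour necrosis factor, went the other way with IL-4. It read 8.12 in KO and 9.92 in WT untreated, and 11.36 in KO and 12.92 in WT with IL-4. Olr1, a scavenger receptor for oxidised low-density lipoprotein, read 5.83 in KO and 8.16 in WT untreated, and 5.85 in KO and 9.44 in WT with IL-4, so it was level in KO and 1.28 higher with IL-4 in WT. Ccl20, a chemokine that attracts cells carrying CCR6, differed by -1.19 and -1.10 with dim values. On the list of 33 cytokine and chemokine genes 18 had a symbol, of which Ccl20 was lower and Lif higher under both treatments, and the median differences were 0.07 and -0.19.

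The other immune genes were the complement protease C1s1 (-1.52 and -3.57), the receptor chain Il22ra1 (-1.06 and -1.0) and the gasdermins Gsdmc (-1.17 and -1.36) and Gsdmc2 (-1.84 and -1.25). They were added after their values were seen. Gsdmc and Gsdmc2 are neighbouring paralogues, and whether their probes share sequence was not tested. A further 3 clusters carry Ccl27b, a keratinocyte chemokine, beside other symbols. They read 12.50 in KO and 13.54 or 13.55 in WT untreated, and 10.52 in KO and 11.86 or 11.87 in WT with IL-4. The 3 clusters differed from each other by at most 0.01, share symbols, and were counted apart because the rule counts clusters.

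Proteases and their inhibitors numbered 9. Stfa3, a stefin that inhibits cysteine proteases, read 10.54 in KO and 12.50 in WT untreated, and 5.33 in KO and 7.02 in WT with IL-4. Spink12, a Kazal-type serine protease inhibitor, read 6.25 in KO and 8.04 in WT untreated, and 3.78 in KO and 5.70 in WT with IL-4. Timp3, an inhibitor of metalloproteinases, read 7.31 in KO and 9.44 in WT untreated, and 5.65 in KO and 7.21 in WT with IL-4. All 3 inhibitors were lower with IL-4 in both genotypes, and their KO untreated values lay above their WT values with IL-4. Their values with IL-4 were dim in both genotypes.

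Klk10, a kallikrein-related peptidase, did not move with IL-4. It read 11.53 in KO and 12.79 in WT untreated, and 11.58 in KO and 12.84 in WT with IL-4, a difference of -1.26 each time. Mmp13, a collagenase, read 6.71 in KO and 7.83 in WT untreated, and 7.12 in KO and 9.75 in WT with IL-4. The list of 34 matrix and protease genes had 21 members with a symbol, and its genes were divided, with Mmp2 among those higher and Inhba, Mmp13 and Timp3 lower under both treatments. The median differences of the 21 were 0.26 and -0.01. Csta1, Prss22, Serpina9 and Serpina12 completed the group.

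Transcription and signalling genes formed a group of 9. Inhba, which encodes a subunit of activins, was the brightest, at 11.98 in KO and 13.02 in WT untreated, and 12.95 in KO and 15.70 in WT with IL-4. Both KO values lay below both WT values, and the difference was -1.04 untreated and -2.75 with IL-4. Others were the homeobox gene Dlx2, the membrane-bound transcription factor Creb3l1, the Notch feedback regulator Nrarp, the RNA-binding protein Lin28b, the pseudokinase Trib1 and the Ras effector Rin1.

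The other 30 lower clusters had mixed or unclear roles. Bright genes among them were Plet1, a surface protein of epithelial cells, and Dynap, a membrane protein that binds dynactin. Plet1 read 13.98 in KO and 15.18 in WT untreated, and 11.55 in KO and 13.04 in WT with IL-4. Dynap read 10.63 in KO and 12.18 in WT untreated, and 12.67 in KO and 14.40 in WT with IL-4. The monooxygenase Moxd1 read 11.36 in KO and 12.81 in WT untreated, and 12.10 in KO and 13.75 in WT with IL-4. Of these only Moxd1 had both KO values below both WT values.

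Sprr2h, a cornified envelope precursor, differed by -1.57 and -1.33, and AU018091 by -1.06 and -1.74, while Gm5927 differed by -1.65 and -1.09. Prl8a9, a member of the prolactin family, differed by -1.62 and -2.66, and Psca, a membrane-anchored surface antigen, by -1.61 and -2.35. Among the rest were Myl9, Sprr2g, Igsf9b, Lpo, Renbp, Maged2, Oaf, Ogdhl, Gyltl1b, Acy3, Mroh6, BC021614 and 2310007B03Rik, with differences inside the range of the set. Igf2bp1, an RNA-binding protein, shares its cluster with Mir3063, and that cluster differed by -2.47 and -3.93. The prion gene Prnp shares its cluster with Prnd and Prn (-1.30 and -1.40), and clusters with Clca2 (-1.09 and -2.04) and BC100530 with Stfa3 (-1.50 and -2.45) make up the remainder. These clusters of several symbols are named after their values were seen.

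**Figure D3:**
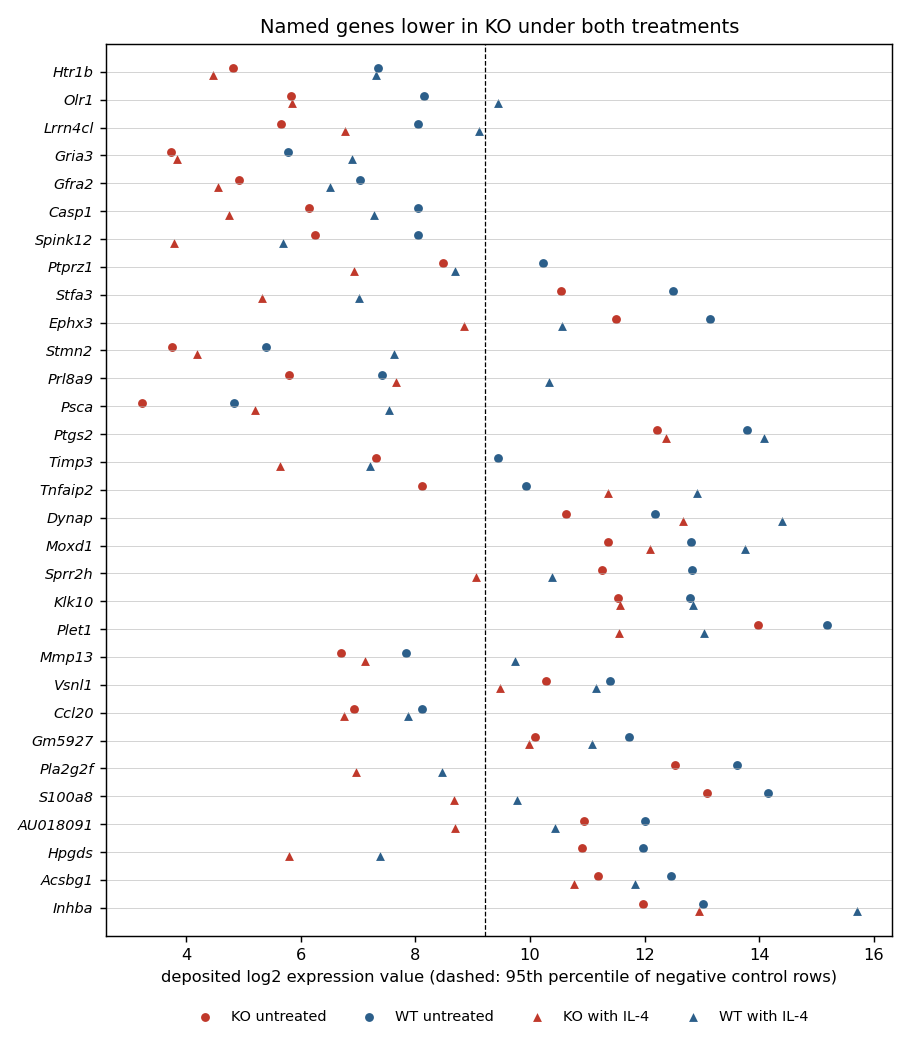
Deposited log2 expression values (x axis) of the 31 genes of the lower set that the naming rule selects (rows, ordered by the smaller of the 2 differences), drawn as in the plot of the higher set. Red is KO and blue WT, circles are untreated and triangles with IL-4, 1 array each, and the dashed line is 9.21. Ptgs2, Klk10, Vsnl1, Moxd1, Acsbg1, Gm5927 and Inhba have all 4 values right of the line with both KO values left of both WT values, while Htr1b and Casp1 lie wholly left of it.

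Other lists gave few or no genes of this kind. Over all clusters 0.244% were at least 1 log2 higher and 0.69% lower in KO under both treatments. Named genes come only from the deposited tables of large differences, so the counts of these lists are a description. The same applies to the cytokine, matrix and amine receptor lists above. Of 28 tensin and focal adhesion genes 19 had a symbol, with 3 higher untreated, 2 higher with IL-4 and Tns3 alone higher in both. Of all clusters 1.34% were higher untreated and 1.61% with IL-4. The paralogue Tns4 differed by 0.62 and -0.31. Of 15 genes of leucine-rich repeat membrane proteins 5 had a symbol, and Lrrn4cl alone was lower in both. Of 36 growth factor and receptor genes 20 had a symbol, of which Angptl7 and Fgfr1 were higher in both. No gene was at least 1 log2 higher, or at least 1 log2 lower, in KO under both treatments among the named members of the lists for interferon and antigen presentation (6 of 36 named), Wnt and Notch (6 of 27), terminal differentiation (29 of 34) or antioxidant and detoxification genes (20 of 34). The same held for chromatin and HMG proteins (4 of 22), alarmin receptors (3 of 11) and calcium and small GTPase signalling (13 of 39). The lists do not hold every gene of their kind. Sprr2h (-1.57 and -1.33) and the left-out Krt10 (1.97 and 1.90) are not among the named terminal differentiation genes. The cluster with Gsta1 (1.03 and 2.15) has several symbols and was not counted in any list.

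Genes just inside and just outside the rule had values close to each other. In the higher set Gm5483 (1.01 and 1.05) and Lifr (1.02 and 1.08) were just inside, and Syt17 (1.04 and 0.99) and Serpina3n (0.99 and 1.08) just outside. In the lower set Lin28b (-1.0 and -1.01) and Oaf (-1.0 and -1.71) were just inside, and Gm5416 (-0.99 and -1.32) and Dhrs9 (-2.76 and -0.996) just outside. The spread of the difference between both genotype differences over all clusters, as a robust SD divided by the square root of 2, was 0.38, far more than these gaps.

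The response to IL-4 was not part of the rule, though it is built from the same 4 arrays and shares each of them with a genotype difference. In the lower set 33 clusters were at least 1 log2 lower with IL-4 in KO and 32 in WT, where 9.51% and 9.39% of all clusters were. Of the 75, 32 were lower in both genotypes, against 6.28% of all clusters. A further 10 were that much higher in both, against 5.77% of all clusters, and 22 stayed under 1 log2 in both, against 73.2% of all clusters. The median response was -0.80 in KO and -0.56 in WT, and over all clusters 0.07 in KO and 0.09 in WT.

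The higher set leaned the other way. With IL-4, 10 of 21 clusters were at least 1 log2 higher in KO and 10 in WT, where 9.12% and 10.9% of all clusters were, and the 10 were the same. They included Lif, Spp1, Clu, Fgfr1, Tns3, Zeb1 and Plpp1. Il20ra alone was at least 1 log2 lower in both, with responses of -2.68 in KO and -2.04 in WT. The median response was 0.86 in KO and 0.87 in WT. In the lower set, 6 of 8 lipid genes were at least 1 log2 lower with IL-4 in KO and 6 in WT. So were 6 of 9 proteases and inhibitors in each genotype. The same held for 33 of all 75 lower clusters in KO and 32 in WT, and for 9.51% and 9.39% of all clusters. Both groups were made after the values were seen, so their counts are a description.

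The IL-4 response differed between KO and WT by at most 0.5 log2 in 47 of 75 lower and 14 of 21 higher clusters, shares near the 63.9% of all clusters. It differed by at least 1 log2 in 10 lower and 3 higher clusters, where 10.2% of all clusters did. This difference of responses equals the genotype difference with IL-4 minus that untreated, the values that the rule used. The counts are therefore a description, and nothing is concluded from their distance to the shares of all clusters.

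**Figure D4:**
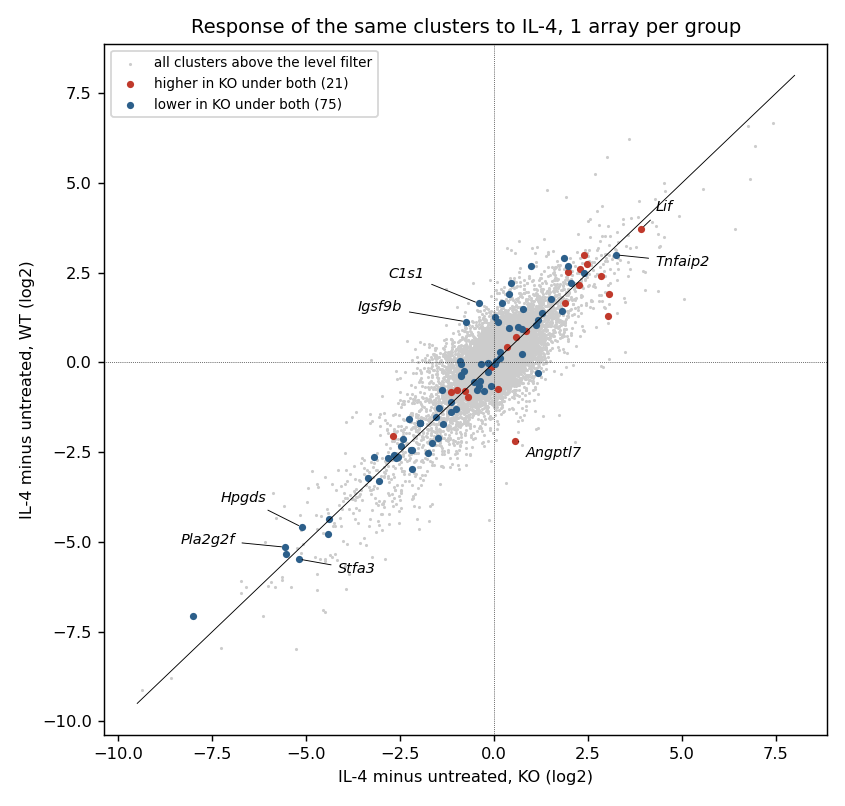
IL-4 minus untreated in KO (x axis, log2) against IL-4 minus untreated in WT (y axis, log2), 1 point per cluster, for all clusters above the level filter (grey) and the 21 higher (red) and 75 lower (blue) clusters. The solid line marks equal responses. Blue points extend to the lower left, with Hpgds at -5.12 in KO and -4.59 in WT, 10 of the 21 red points lie past 1 log2 at the upper right, with Lif at 3.91 in KO and 3.72 in WT, and Angptl7 stands off the line at 0.56 in KO and -2.18 in WT.

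Position was also not used by the rule. Of the 96 clusters, 85 had a single symbol with a position in RefSeq, all but 1 of them protein-coding. The genes were spread over 19 autosomes and the X chromosome, and no chromosome held more than 9.38% of them (chromosome 9, with 5.58% of all clusters above the filter). Chromosome 5, which carries Hmgb1 at 149046702 to 149053057, held 2 of the 96 (2.08%, against 6.32% of all clusters), both of them higher in KO. Spp1 (104435111 to 104441053) lies 44.6 Mb from Hmgb1.

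Within 1 Mb of each other lay 13 of the 85 genes, in 8 pairs. The same count was not made for other genes on the array, so it does not show that these genes cluster. Paralogues made up several pairs: Sprr2g and Sprr2h on chromosome 3 (10.5 kb apart), Serpina9 and Serpina12 on chromosome 12 (15.1 kb) and Gsdmc and Gsdmc2 on chromosome 15 (15.6 kb). The stefin cluster on chromosome 16 held Csta1 and Stfa3 of the lower set, and Gm5483 of the higher set lay between them, 53.0 kb from Csta1. Related genes can share probe sequence, and the part of this in their like values was not tested.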

How the data were processed

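The RNA of 4 keratinocyte cultures was hybridised to Clariom S arrays for mouse, 1 per group. The authors deposited log2 expression values for 28846 rows (22206 transcript clusters and 6640 control rows), made with RMA in Affymetrix Expression Console 1.4, per the submitters' processing notes. RMA brings the arrays to a common distribution, which hides any shift shared by most genes. The series' design text names a different program (Exon Array Computational Tool). The authors also deposited 2 tables of clusters at least 2-fold apart, with log2 values and a signed fold score that is positive where WT with IL-4 (or untreated WT) is higher. Their annotation is na36 for mm10, as the file headers state. Symbols were taken only from these tables, so other clusters were not named, and a few members are not reported here by name. Positions and promoters come from RefSeq on GRCm38.p6, matched by symbol or synonym.

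Differences between arrays were computed with pandas 2.3.3. The code of the rule was checked on simulated data with large planted differences, which gives no error rate for these arrays. Cyclic loess used limma 3.58.1. The members, groups and lists (14 functional, 6 of cell markers) were chosen with earlier results of these data known. Genes named in full were the 4 markers, the 15 of each set with the largest smaller difference, the 15 with the highest mean level, those on a functional list and those on the chromosome of Hmgb1. With 1 array per group no p-value was computed. Precision is limited by how few arrays there are, and the alternatives tried were scaling, level filter, size threshold and single-symbol clusters.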

Additional observations from a re-analysis of the deposited data

Results flagged for a closer look

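Among the genes with a single symbol, 3 had IL-4 responses of opposite sign in the genotypes that differed by at least 1 log2. With 1 array per group the difference was not tested. Angptl7 responded by 0.56 in KO and -2.18 in WT, a difference of 2.74, KO minus WT. C1s1 responded by -0.41 in KO and 1.64 in WT, a difference of -2.05, and only its WT value with IL-4 reached 9.21. Igsf9b responded by -0.74 in KO and 1.13 in WT, a difference of -1.88, with all 4 values dim.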

How the results depend on the processing

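The counts depended on the level filter and the size threshold more than on scaling. With the highest value at or above the control rows' 95th percentile, 12 clusters were higher and 39 lower, in place of 21 and 75. With the lowest value at the table's median they were 14 and 43. At 1.5 log2, 1 was higher (Angptl7) and 21 lower, and at 0.58 log2 there were 149 and 286. Without a filter they were 24 and 79, with cyclic loess 20 and 75 (18 and 74 of them shared) and with centred arrays 19 and 78. All 48 genes that the naming rule selects stayed past 1 log2 in both treatments under both scalings. They also did so with IL-4 in the authors' deposited table, and moved by at most 0.07. Genes named outside that rule, Gm5483 and Lifr among them, were not in this count. Of the 21 higher clusters, 3 were lost with cyclic loess and 2 with centred arrays, and of the 75 lower, 1 and 0. The median IL-4 response of the lower set in KO was -0.93 with cyclic loess, against -0.80, and that of the higher set in KO was 0.73 with single-symbol clusters, against 0.86. The other medians moved by under 0.1. No paired analysis was possible because each group has 1 array. Signal over background limits the dim genes, 9 of 21 higher and 36 of 75 lower clusters.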
